A study of Mus musculus with 4 samples.

Results

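Microglia are the resident macrophages of the brain and spinal cord, and their identity is held by transcription factors that act together on shared stretches of DNA. PU.1, the ETS factor coded by Spi1, opens myeloid enhancers and binds many of them with IRF8, while SALL1 and the MEF2 factors set microglia apart from macrophages of other tissues. RUNX1, C/EBP alpha and Ikaros act earlier, in blood and myeloid progenitors, and remain in use in macrophages. The 9 genes described here, Spi1, Irf8, Sall1, Mef2a, Mef2c, Runx1, Cebpa, Bhlhe41 and Ikzf1, were taken by exact gene name from a count table of 42458 rows, and each was found once.

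The libraries form 1 group of 4 mice with no second condition. Per the labels, C57BL6 mice received AAV2-CAG-tdT into a brain ventricle, an adeno-associated virus that codes for the red fluorescent protein tdTomato under the CAG promoter, which is active in many cell types. Slices of spinal cord around the central canal were dissociated, and 50 live tdTomato-positive cells of each mouse were sorted to enrich neurons that contact the cerebrospinal fluid (CSF-cNs). All 4 animals carried the virus, no untreated library was analysed here, and the labels give no age or sex. Values of the 4 libraries are listed from mouse 1 to mouse 4.

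Markers of the labelled cell type were scarce in the libraries of mice 1 and 2. The 7 CSF-cN markers summed to 19.4, 2.59, 930 and 831 CPM (counts scaled to a common library size with TMM normalization), and the transgene had 5, 58, 13533 and 153379 counts. The 16 microglia markers summed to 64723, 68182, 41337 and 58436 CPM, and every one of them stood above 10 CPM in each library; the purinergic receptor gene P2ry12 (7288 ± 1381 CPM, SD, n = 4) was among the highest. The 10 oligodendrocyte markers summed to 14726, 237, 18726 and 452 CPM, so that the libraries of mice 1 and 3 held far more oligodendrocyte RNA than the other two. Total counts were between 83007030 and 115479640 per library, and the limit that a count of 0 sets was 0.0278 to 0.0348 CPM (3 counts). Counts come from amplified cDNA without molecular identifiers, so floors and intervals cover counting error only. In pools of cells, a smaller number of cells of a type and less RNA per cell cannot be told apart.

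All 9 factors were present in all 4 libraries. With edgeR's quasi-likelihood test, 9 of 9 were called above 10 CPM, against 36.7% of the 18522 genes tested, and 9 of 9 stood at 10 CPM or more in each mouse, as did 36.5% of tested genes. The genes were picked as microglial factors with earlier results of these data known, so this count describes the libraries and is no independent evidence. The median level of the 9 relative to 10 CPM was 4.79 on the log2 scale, against -0.07 over all tested genes. Together the 9 held 1991, 2859, 1344 and 2156 CPM. By their means, seen after the fact, they fell into a high set of 5 (Mef2c, Mef2a, Irf8, Spi1 and Sall1, with means of 277 to 505 CPM) and a low set of 4 (Runx1, Ikzf1, Bhlhe41 and Cebpa, with means of 36.3 to 70.0 CPM).

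**Figure D1:**
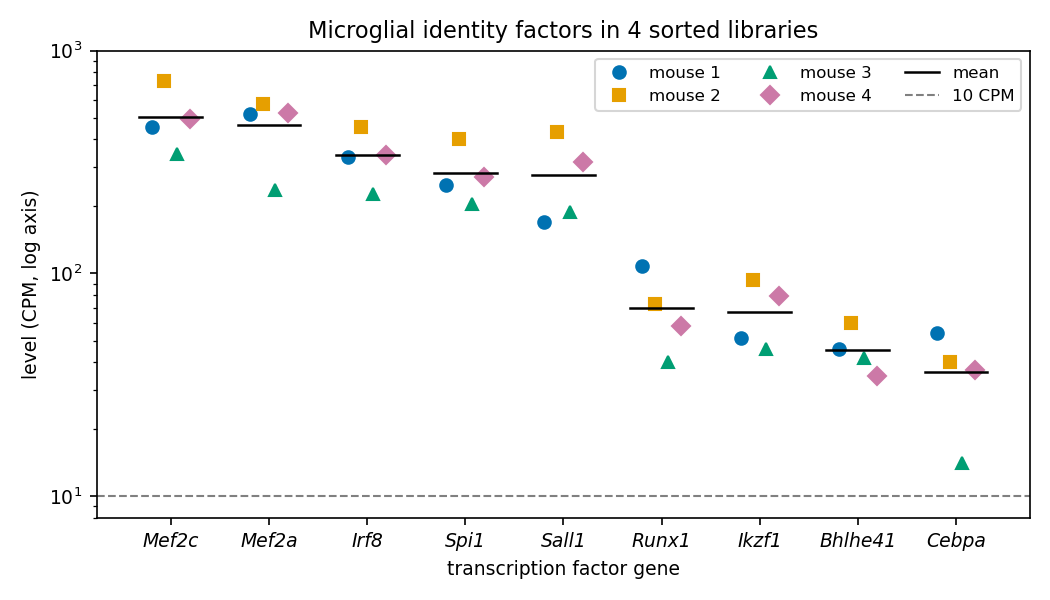
Level in CPM (log axis) of each of the 9 factor genes in the libraries of mice 1 to 4 (points), with the mean of the 4 mice (black line) and the 10 CPM level used in the test (dashed). All 36 points lie above 10 CPM, and the lowest is Cebpa in mouse 3 at 14.1 CPM.

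Spi1, which codes for PU.1, had 250, 402, 206 and 271 CPM, averaging 282 ± 84.5 CPM (SD, n = 4). Mouse 2 was the highest and mouse 3 the lowest. Its log2 level over 10 CPM was 4.82 (edgeR adjusted p = 8.0e-08), and 97.5% of tested genes had a lower mean. On GRCm38, which mm10 also names, Spi1 occupies bases 91082390 to 91115756 of chromosome 2 (plus strand).

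Irf8 codes for the interferon regulatory factor that pairs with PU.1 on composite sites. It had 335, 457, 227 and 342 CPM, averaging 340 ± 93.7 CPM (SD, n = 4), again with mouse 2 highest and mouse 3 lowest. The log2 level over 10 CPM was 5.09 (edgeR adjusted p = 5.3e-08). The gene spans 120736358 to 120756694 on the plus strand of chromosome 8.

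Sall1, a zinc finger gene that among macrophages is known from microglia, varied more. It had 170, 430, 190 and 317 CPM, averaging 277 ± 121 CPM (SD, n = 4), and here mouse 1 rather than mouse 3 was the lowest. Mouse 2 held 2.54 times the level of mouse 1. Its log2 level over 10 CPM was 4.79 (edgeR adjusted p = 2.6e-07). Sall1 lies on the minus strand of chromosome 8 from 89027235 to 89044162.

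The MEF2 factors are MADS-box proteins that are also known from neurons and muscle. Mef2c, the highest of the 9 in CPM, had 455, 729, 344 and 493 CPM, averaging 505 ± 162 CPM (SD, n = 4), and 98.8% of tested genes had a lower mean. Mef2a had 523, 575, 236 and 523 CPM, averaging 464 ± 154 CPM (SD, n = 4), with 3 close values and a low one in mouse 3. The log2 levels over 10 CPM were 5.66 for Mef2c (edgeR adjusted p = 2.7e-08) and 5.54 for Mef2a (adjusted p = 5.7e-08). The 6 neuron markers summed to 36.8, 63.4, 753 and 272 CPM and were highest in mouse 3, where Mef2a and Mef2c were lowest. The part of neurons in the Mef2a and Mef2c values was not tested. Mef2c lies on the plus strand of chromosome 13 from 83504034 to 83667080, and Mef2a on the minus strand of chromosome 7 from 67231163 to 67372858. The libraries do not keep the strand, and 302 bases of Mef2a exons overlap Lysmd4 on the other strand, a gene with 1086, 549, 518 and 488 counts beside 56450, 53761, 20386 and 46926 for Mef2a.

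Runx1 and Cebpa were the factors with their highest level in mouse 1. Runx1, a Runt-domain factor of blood formation, had 108, 73.2, 40.2 and 58.4 CPM, averaging 70.0 ± 28.9 CPM (SD, n = 4). Its log2 level was 2.81 (edgeR adjusted p = 1.6e-05). Cebpa, which codes for the basic leucine zipper factor C/EBP alpha of myeloid progenitors, had 54.1, 40.2, 14.1 and 36.8 CPM. It averaged 36.3 ± 16.6 CPM (SD, n = 4), with a log2 level of 1.86 (edgeR adjusted p = 0.0011). Mouse 3 was the lowest for each of them, and for Cebpa the highest mouse held 3.84 times the lowest, the widest range of the 9. The lowest count behind any of these values was 1214, for Cebpa in mouse 3, with a 95% Clopper-Pearson interval of 13.3 to 14.9 CPM. Counting error of reads is thus small beside the spread between mice. The interval does not cover error from the amplification of cDNA. With mice 3 and 4 alone, which leaves out the libraries with few transgene counts, Cebpa was no longer called (edgeR adjusted p = 0.056) and the count was 8 of 9. The 7 markers of border macrophages, the macrophages of meninges and vessels, summed to 93.0, 45.5, 52.9 and 70.7 CPM and were also highest in mouse 1. Their part in the Runx1 and Cebpa values was not tested. Runx1 lies on the minus strand of chromosome 16 from 92601466 to 92826149 and Cebpa on the plus strand of chromosome 7 from 35119293 to 35121928.

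Ikzf1 and Bhlhe41 completed the low set. Ikzf1, which codes for the zinc finger protein Ikaros, known above all from lymphocytes, had 51.5, 93.2, 45.7 and 79.5 CPM. It averaged 67.5 ± 22.6 CPM (SD, n = 4), with a log2 level of 2.75 (edgeR adjusted p = 1.0e-05). Mice 2 and 4 were high and mice 1 and 3 low, while the oligodendrocyte sum was high in mice 1 and 3; its part in the Ikzf1 values was not tested. Lymphocyte markers were nearly absent, with 8 of 11 at 0 in all mice (among them Cd3e, Cd79a, Ms4a1, Nkg7, Pax5, Tbx21 and Eomes) and Ebf1 (0, 0, 9.35 and 1.66 CPM) and Cd3d (0.259, 0, 0.0811 and 0 CPM) the highest of the rest. Bhlhe41, a basic helix-loop-helix repressor known from the circadian clock, had 45.9, 59.7, 41.7 and 34.6 CPM. It averaged 45.5 ± 10.6 CPM (SD, n = 4), with a log2 level of 2.19 (edgeR adjusted p = 3.2e-05). It had the narrowest range of the 9, with 1.72 times between mouse 2 and mouse 4, and was the only one with its lowest level in mouse 4. Ikzf1 lies on the plus strand of chromosome 11 from 11685003 to 11772926, and Bhlhe41 on the minus strand of chromosome 6 from 145858243 to 145865558.

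Of the 9, 7 were lowest in mouse 3 and 7 were highest in mouse 2, the libraries with the lowest and the highest summed microglia markers. The factors were therefore also expressed per 1000 CPM of these markers in the same library. On that scale the coefficient of variation between mice was smaller for 9 of 9 factors, though for Bhlhe41 only by 23.0% against 23.2% in CPM, and 3 rather than 7 were lowest in mouse 3. The share over all tested genes was not computed for any of these counts, so they are not read as particular to the factors. Irf8 became the steadiest, at 5.17, 6.70, 5.50 and 5.85 per 1000 (coefficient of variation 11.3%, against 27.6% in CPM). Spi1 stood at 3.86, 5.90, 4.98 and 4.65 per 1000, Mef2c at 7.02, 10.7, 8.32 and 8.44, and Mef2a at 8.08, 8.44, 5.72 and 8.95.

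Differences between mice remained on this scale for some factors. Sall1 was at 2.62, 6.31, 4.58 and 5.43 per 1000, lowest in mouse 1. Ikzf1 was at 0.796, 1.37, 1.10 and 1.36 per 1000, also lowest in mouse 1. Runx1 showed another order, with 1.67 per 1000 in mouse 1 and 1.07, 0.971 and 1.00 in mice 2, 3 and 4. Cebpa was at 0.836, 0.589, 0.340 and 0.630 per 1000, highest in mouse 1 and lowest in mouse 3. Bhlhe41 was at 0.709, 0.876, 1.01 and 0.593 per 1000 and had its highest value in mouse 3. These are descriptions of 4 libraries, with no test.

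**Figure D2:**
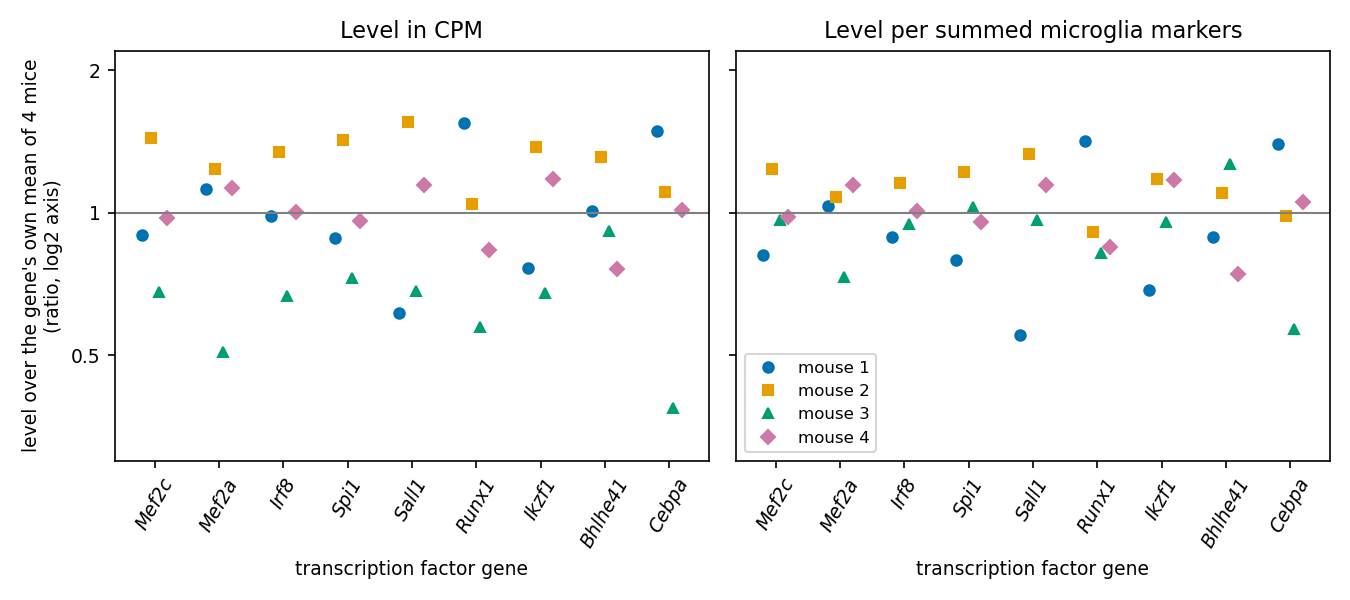
Each factor's level divided by its own mean over the 4 mice (ratio, log2 axis), in CPM (left) and per summed level of the 16 microglia markers (right); points are the libraries of mice 1 to 4. On the left, mouse 3 is the lowest for 7 of the 9 factors; on the right it is the lowest for 3.

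The spread between mice was close to that of other genes. The SD of log2(CPM + 1) had a median of 0.48 over the 9 factors, against 0.50 over the 9125 genes whose mean reached 10 CPM. It was 0.32 for Bhlhe41 and 0.81 for Cebpa, and 24.0% and 77.1% of these genes had a smaller one. The 2 count columns of a mouse, summed here, differed by at most 9.16% for any factor.

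The pattern over the 4 mice was shared with many genes. By root mean square distance of centred log2(CPM + 1), the genes nearest to Irf8 were Fcer1g (distance 0.0092; 1008, 1399, 692 and 1044 CPM), Arpc1b (0.010) and Zfp235 (0.026), and 121 of the 9124 genes compared lay within 0.1. Those nearest to Spi1 were Mgat4a (0.0088; 70.8, 114, 58.8 and 77.7 CPM), Ang (0.023) and Rock2 (0.025). Those nearest to Mef2c were Sipa1 (0.019) and Ppcdc (0.028), and those nearest to Mef2a were Btg2 (0.020; 1187, 1257, 531 and 1170 CPM), Vcam1 (0.039) and Smg1 (0.049). Sall1 and Mef2a had fewer close neighbours, with 17 and 25 genes within 0.1, against 95 for Spi1 and 100 for Mef2c. Those nearest to Sall1 were Gm46347 (0.040), Otud4 (0.044) and Tgfbrap1 (0.053). With 4 libraries such likeness is a description only.

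Levels of different genes were compared per length, as CPM per kilobase of annotated exons. On this scale Spi1 led, with 92.7, 149, 76.4 and 101 CPM per kb (mean 105 ± 31.4, SD, n = 4), and it exceeded each other factor in every mouse. Sall1 followed (32.2, 81.7, 36.0 and 60.2 CPM per kb), then Irf8 (47.4, 64.7, 32.2 and 48.4). Sall1 exceeded Irf8 in 3 of 4 mice, so this pair did not differ beyond its spread. Mef2c (mean 32.1 ± 10.3 CPM per kb) and Mef2a (31.6 ± 10.5) were not separated, each being the higher in 2 mice. Cebpa (13.8 ± 6.29) and Ikzf1 (11.7 ± 3.92) were not separated either, again with 2 mice each way, and Bhlhe41 (6.77 ± 1.57) exceeded Runx1 (5.82 ± 2.40) in 3 of 4. The neighbouring pairs Spi1 and Sall1, Irf8 and Mef2c, Mef2a and Cebpa, and Ikzf1 and Bhlhe41 kept their order in 4 of 4 mice. Taking the longest transcript as the length moved Sall1 behind Irf8, Mef2a and Mef2c, to 52.5 ± 23.1 CPM per kb against 98.0 ± 27.0 for Irf8, and placed Runx1 (11.9 ± 4.93) above Bhlhe41 (7.42 ± 1.72), so the order below Spi1 depends on the gene model.

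Each family of the 9 factors has further members, which bind similar DNA. Of 26 such relatives, 18 had enough counts for a test and 11 were called above 10 CPM by edgeR, while 5 had no count in any mouse (Spic, Sall4, Mef2b, Cebpe and Ikzf3). The median log2 level of the 18 tested was 1.65 relative to 10 CPM.

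The 2 relatives of Spi1 examined in the ETS family were at or under the limit that a count of 0 sets. Spib, its relative of B cells and plasmacytoid dendritic cells, had a single count, in mouse 4, and Spic, known from macrophages of the spleen, had none, so no fold is given.

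In the IRF family, Irf8 was not the highest per length. Irf5, a mediator of Toll-like receptor signalling, had 343, 373, 194 and 299 CPM, or 118, 128, 66.7 and 103 CPM per kb, and exceeded Irf8 in 4 of 4 mice. The log2 ratio of Irf8 over Irf5 was -1.31, -0.99, -1.05 and -1.09, a mean of -1.11 ± 0.14 (SD, n = 4; exact p = 0.13, two-sided, by flipping signs of the 4 mice, which cannot give a smaller p; adjusted p = 0.14 over 11 pairs). With lengths of the longest transcripts the mean was -0.46. Irf4, a relative known from lymphocytes, had 7.95, 0, 0.0232 and 5.69 CPM, so that the log2 ratio of Irf8 over Irf4 was 4.79 in mouse 1 and 5.27 in mouse 4. In mice 2 and 3 Irf4 had fewer than 3 counts, so the pseudocount sets the ratio and none is given. Among the other IRF genes, Irf1 (112 ± 43.9 CPM), Irf9 (92.0 ± 35.0 CPM), Irf2 (82.8 ± 12.5 CPM) and Irf3 (29.4 ± 11.2 CPM) were called above 10 CPM. Irf7, an interferon-induced gene, had 7.76, 77.5, 2.05 and 45.9 CPM, high in mice 2 and 4, and was not called (edgeR adjusted p = 0.068), though it was without mouse 3 (adjusted p = 0.017).

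In the SALL family, Sall3 was also present, with 74.3, 77.9, 23.9 and 76.6 CPM (63.2 ± 26.2, SD, n = 4; called by edgeR, adjusted p = 6.1e-05). Sall1 exceeded Sall3 per length in 4 of 4 mice, by a log2 ratio of 1.69, 2.96, 3.45 and 2.54 (mean 2.66 ± 0.75; exact p = 0.13, adjusted p = 0.14). The ratio was smallest in mouse 1 and largest in mouse 3.

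In the MEF2 family, the log2 ratio of Mef2c over Mef2a was -0.30, 0.24, 0.44 and -0.18, a mean of 0.05 ± 0.35 (SD, n = 4; exact p = 0.875, adjusted p = 0.88), so which of the pair is higher was not resolved. Mef2d, the broadly expressed relative, had 29.4, 34.5, 24.0 and 18.9 CPM (26.7 ± 6.73, called by edgeR). Mef2a exceeded it per length in 4 of 4 mice, by a log2 ratio of 2.75 ± 0.60 (exact p = 0.13, adjusted p = 0.14), or 4.01 with the lengths of the longest transcripts.

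In the RUNX family, Runx1 was the only gene above 10 CPM. Runx2, known from bone, had 1, 194, 0 and 10 counts, and Runx3, known from T cells, had a single count in mouse 3. The log2 ratio of Runx1 over Runx2 was 4.21 in mouse 2 and 5.46 in mouse 4. In mice 1 and 3 Runx2 had fewer than 3 counts, so the pseudocount sets the ratio and none is given. Cbfb, which codes for the partner subunit that RUNX proteins need, had 95, 77.0, 69.8 and 63.7 CPM, with its highest value in mouse 1 as for Runx1.

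In the C/EBP family, Cebpa had a lower mean per length (13.8 CPM per kb) than Cebpb (79.6), Cebpg (27.1) and Cebpd (18.2). In mouse 1, however, Cebpa (20.5 CPM per kb) exceeded Cebpg (18.0). Cebpb, a factor of inflammatory responses, had 183, 107, 96.8 and 92.0 CPM, Cebpg 152 ± 40.4 CPM and Cebpd 68.3 ± 33.1 CPM (SD, n = 4), and all 3 were called above 10 CPM by edgeR. The log2 ratio of Cebpa over Cebpb per length was -2.57, -2.21, -3.57 and -2.12, a mean of -2.62 ± 0.66 (lower in 4 of 4 mice; exact p = 0.13, adjusted p = 0.14).

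Bhlhe41 and Ikzf1 exceeded the relatives they were paired with, Bhlhe40 and Ikzf2, in 4 of 4 mice. Bhlhe40, the other repressor of the Bhlhe41 family, had 0, 1.5, 4.20 and 12.7 CPM, and the log2 ratio of Bhlhe41 over Bhlhe40 was 4.43, 2.67 and 0.90 in mice 2, 3 and 4. In mouse 1 Bhlhe40 had no count, and no ratio is given. Ikzf2, which codes for Helios, had 14.0, 5.05, 5.81 and 5.37 CPM, and the log2 ratio of Ikzf1 over Ikzf2 was 4.02 ± 0.96 (exact p = 0.13, adjusted p = 0.14). Ikzf5 (24.2 ± 10.9 CPM) was called above 10 CPM by edgeR (adjusted p = 0.014), but not without mouse 3 (0.086) or mouse 4 (0.11).

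**Figure D3:**
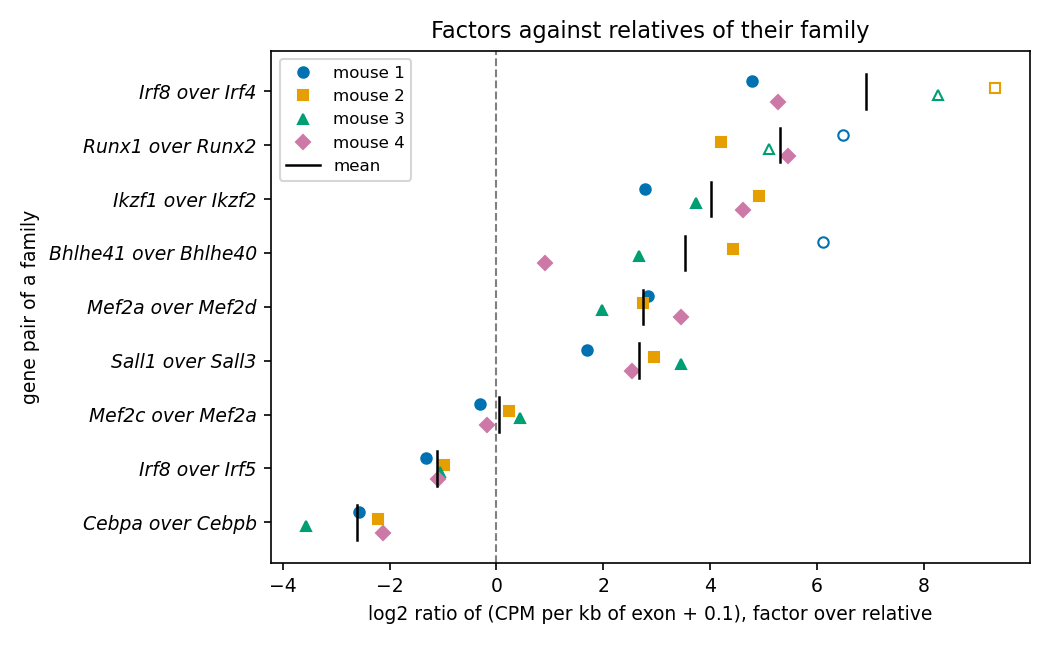
Log2 ratio of (CPM per kb of exon + 0.1) of a factor over a relative of its family in the libraries of mice 1 to 4 (points) and their mean (line), for the 9 pairs whose relative had counts in more than 1 mouse; open points have a relative with fewer than 3 counts, so the pseudocount sets their size and moves the mean. Irf8 over Irf5 and Cebpa over Cebpb lie below 0 in every mouse, Mef2c over Mef2a lies on either side of 0, and the other 6 pairs lie above 0.

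Further regulators of the myeloid lineage were present beside the 9. Of 14 on the list, 13 were tested and 11 were called above 10 CPM by edgeR. Among them were Lmo2 (214 ± 60.5 CPM, SD, n = 4), a cofactor of blood formation, Klf2 (127 ± 62.8 CPM), Zeb2 (121 ± 25.5 CPM), Maf (111 ± 43.3 CPM) and the ETS factor genes Elf1 (109 ± 35.1 CPM) and Fli1 (78.3 ± 21.6 CPM). Hhex stood at 81.2 ± 27.1 CPM, a value that is uncertain because a second row repeats its counts. The genes of the TGF-beta mediators Smad4 (47.9 ± 18.9 CPM) and Smad3 (15.5, 36.2, 7.22 and 40.4 CPM) were called as well. The call of Smad3 (edgeR adjusted p = 0.034) was lost without mouse 2 (0.16) or mouse 4 (0.23). Lyl1 (11.2 ± 4.08 CPM) and Batf3 (11.1 ± 2.16 CPM) were not, and Tfec had no count.

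Factors that mark macrophages of other tissues were below 10 CPM in every mouse. Gata6, of peritoneal macrophages, had 1 count in mouse 2 alone, Pparg, of alveolar macrophages, had 2 counts in mouse 2 alone, and Nr1h3, of liver and spleen macrophages, had 0, 0, 5 and 48 counts. Id3, of liver macrophages, reached 2.02, 1.49, 1.37 and 0.0111 CPM. Above 10 CPM, edgeR called 0 of the 2 tested and 0 without adjustment at p under 0.05, and DESeq2 and limma-voom also called 0.

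Markers of other blood cells were low. Of the 7 border macrophage markers, the mannose receptor gene Mrc1 (38.2, 16.4, 36.5 and 30.3 CPM) was called above 10 CPM by edgeR, F13a1 (19.0, 9.77, 2.43 and 14.4 CPM) was not, and Lyve1 had no count. The 7 monocyte and neutrophil markers summed to 0, 2.99, 0.742 and 0.769 CPM, from Plac8 (0, 2.99, 0.719 and 0.769 CPM) and 2 counts of Ccr2 in mouse 3, with Ly6c2, S100a8, S100a9, Ly6g and Retnlg at 0. The 5 dendritic cell markers summed to 9.41, 6.86, 4.06 and 10.3 CPM, led by Zbtb46 (5.03 ± 4.24 CPM) and Clec9a (9.21 CPM in mouse 1 and at most 0.0116 CPM in the others), with Cd209a at 0. Of the monocyte, neutrophil, lymphocyte and dendritic cell markers, edgeR, DESeq2 and limma-voom called 0 above 10 CPM, and edgeR called 0 without adjustment at p under 0.05.

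Summed markers of non-blood cells differed widely between mice. The 6 astrocyte markers summed to 840, 35.3, 855 and 134 CPM, led by Aldoc in mice 1, 3 and 4 (835, 11.6, 846 and 118 CPM) and by Gfap in mouse 2 (3.91, 23.4, 7.79 and 0 CPM). The myelin gene Mbp was among the leading genes of the oligodendrocyte sum, and the neuron sum was led by Snap25 and Tubb3. The 5 ependymal markers summed to 0, 0.449, 2.77 and 47.1 CPM, led by Ccdc153 and Mia, and the 4 endothelial markers to 0.0278, 0.0642, 5.18 and 8.50 CPM, led by Flt1 and Ly6c1, with Cdh5 at 0. The CSF-cN sum was led by the channel genes Pkd2l1 and Pkd1l2. None of these sums has the order over mice that Spi1, Irf8 or Mef2c had, with mouse 2 highest and mouse 3 lowest. The oligodendrocyte sum had the exact reverse of that order, from mouse 3 down through mice 1 and 4 to mouse 2. The astrocyte sum shared this reverse order only through Aldoc, while Gfap was highest in mouse 2. The CSF-cN sum was also highest in mouse 3 and lowest in mouse 2. The part of these cells in the factor levels was not tested.

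**Figure D4:**
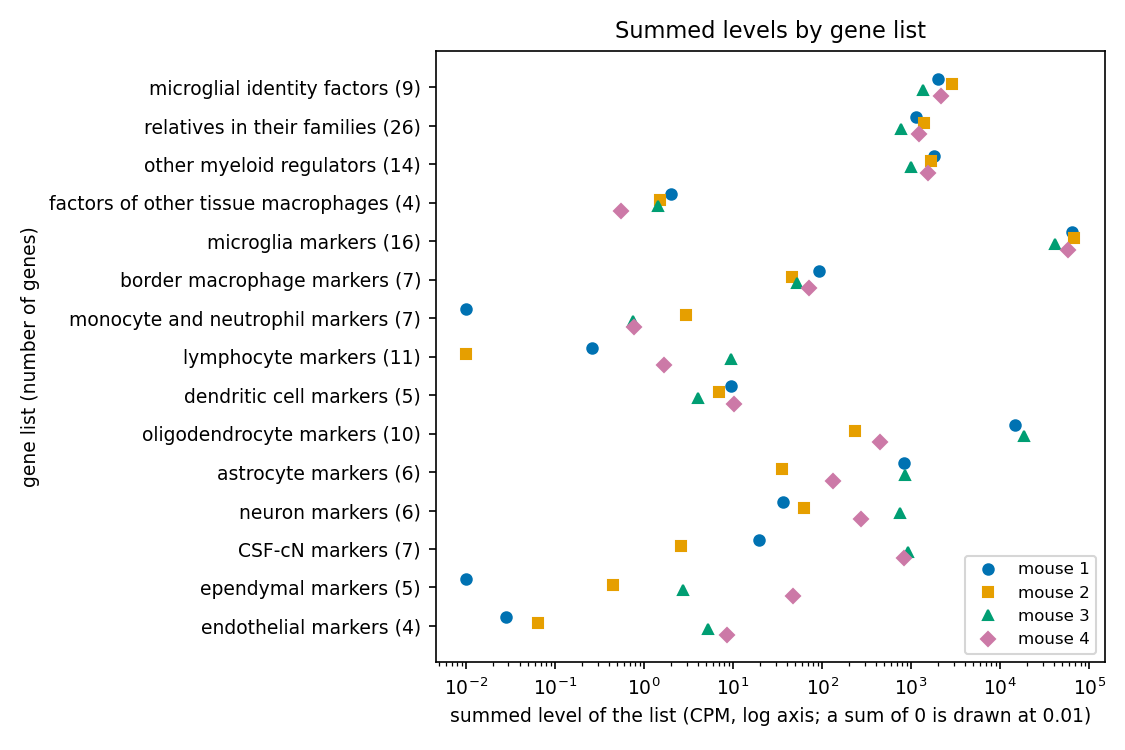
Summed level in CPM (log axis, with a sum of 0 drawn at 0.01) of each gene list in the libraries of mice 1 to 4; the number of genes in a list stands in parentheses. The 9 factors span 1344 to 2859 CPM and the 16 microglia markers 41337 to 68182 CPM, while the 10 oligodendrocyte markers span 237 to 18726 CPM.

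The starts of the factor genes were examined for the letters that such factors bind. RefSeq promoters of 300 bases, 250 before to 50 after each annotated start on GRCm38.p6, were found for 8 of the 9 genes, all but Spi1, in 15 windows. Each motif was searched on both strands, and no match overlapped another. The PU.1 core AGGAAGT was in 1 of the 15 windows, the third one of Sall1, against 9.35% of all 32851 promoters. The IRF motif AANNGAAA was in 3 windows, 2 of Mef2c and 1 of Runx1, against 23.9% of all. The RUNX motif TGTGGT was in 1 window, of Runx1 itself (16.8% of all), the class B E-box CACGTG that BHLHE41 binds in 2, of Bhlhe41 itself and of Runx1 (7.15%), and the MEF2 motif TAAAAATA in 1, of Mef2a itself (2.72%). The C/EBP motif TTGCNNAA was in none (10.8%). A match describes letters and is no binding site, and the lack of one says only that these letters are not in the window.

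The windows below are shown because they hold the PU.1 core or the IRF motif, the letters of the factors coded by Spi1 and Irf8. Each is written 5′ to 3′ on the strand of the gene, with the PU.1 core or IRF motif on either strand in capitals. The Sall1 window is chr8:89042813-89043112 (minus strand), the first Mef2c window chr13:83503784-83504083 (plus strand), with 3 IRF motifs, the third Mef2c window chr13:83573357-83573656 (plus strand), with 1, and that of Runx1 chr16:92826025-92826324 (minus strand), with 2.
Sall1: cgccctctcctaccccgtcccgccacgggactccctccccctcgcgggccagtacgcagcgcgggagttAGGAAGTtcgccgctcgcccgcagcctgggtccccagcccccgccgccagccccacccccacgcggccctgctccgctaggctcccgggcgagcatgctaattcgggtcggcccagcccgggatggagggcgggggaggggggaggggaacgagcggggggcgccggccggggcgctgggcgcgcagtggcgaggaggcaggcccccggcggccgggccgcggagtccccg
Mef2c window 1: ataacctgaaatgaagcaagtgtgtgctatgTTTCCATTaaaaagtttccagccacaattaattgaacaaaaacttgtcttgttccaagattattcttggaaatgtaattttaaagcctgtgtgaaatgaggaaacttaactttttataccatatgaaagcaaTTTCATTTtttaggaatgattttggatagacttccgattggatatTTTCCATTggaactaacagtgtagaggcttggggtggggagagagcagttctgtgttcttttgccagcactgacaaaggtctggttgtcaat
Mef2c window 3: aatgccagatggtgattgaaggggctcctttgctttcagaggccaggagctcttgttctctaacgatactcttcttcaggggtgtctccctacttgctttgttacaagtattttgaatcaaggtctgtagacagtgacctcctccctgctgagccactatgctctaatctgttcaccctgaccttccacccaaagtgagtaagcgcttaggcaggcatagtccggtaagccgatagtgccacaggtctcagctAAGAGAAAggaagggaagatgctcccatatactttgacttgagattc
Runx1: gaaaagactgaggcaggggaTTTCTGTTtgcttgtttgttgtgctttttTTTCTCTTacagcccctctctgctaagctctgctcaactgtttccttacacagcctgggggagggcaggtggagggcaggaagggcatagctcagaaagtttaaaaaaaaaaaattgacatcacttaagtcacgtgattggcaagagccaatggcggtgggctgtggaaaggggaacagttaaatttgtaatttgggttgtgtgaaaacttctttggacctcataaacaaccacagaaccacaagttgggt
The Sall1 and both Mef2c windows belong to genes of the high set and the Runx1 window to a gene of the low set. Irf8 and Mef2a, also of the high set, held neither motif in their windows, and Spi1 had no window. Per microglia markers, Runx1 was highest in mouse 1 and Sall1 lowest there. Any relation of these letters to the levels was not tested.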

How the data were processed

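Counts per gene, in whole numbers, were deposited by the authors with 2 columns per mouse, which were summed. The labels do not say what the 2 columns are. They were assumed to be repeat runs of 1 library. The submitters' processing notes name build mm10 and the tools DESeq2, RSEM, STAR, Trim Galore and FastQC, without roles or versions. Per the labels, cDNA was made with SMART-Seq v4 and libraries with Nextera XT, so counts grow with transcript length. The authors also deposited log2 values, each log2 of a mouse's summed counts over a size factor, plus 1, judged from the values; they were an alternative only.

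CPM were computed with TMM normalization (edgeR 4.0.16, R 4.3.3). Genes with 10 or more counts over all mice were tested against 10 CPM in an intercept-only quasi-likelihood model with an offset, and p-values were adjusted by Benjamini-Hochberg over all 18522 tested genes (threshold 0.05). The F statistic was taken from deviances and tested on simulated data. DESeq2 1.42.0 and limma 3.58.1 were alternatives. P-values of the level tests rest on the spread between 4 mice, each 1 sorted pool. In edgeR the variance of each gene is moderated with that of all tested genes, so they do not measure its own spread alone.

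Exon lengths and positions come from GENCODE M21 on GRCm38. Ratios within families used CPM per kb of exon + 0.1 and an exact sign-flip permutation test, two-sided, of 16 patterns, adjusted over 11 pairs. Python 3.11.15 was used for these steps.

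The members and 15 lists with 137 genes were chosen with earlier results of these data known. The genes named are all 9 factors, relatives whose mean reached 10 CPM or that are in a pair, all other myeloid and tissue macrophage factors, the 2 highest markers of each list, markers without counts, and the 3 genes nearest in pattern to 5 of the factors. Some genes that this rule names are not reported here.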

Additional observations from a re-analysis of the deposited data

Results flagged for a closer look

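In 29 sets of 4 values (each factor in log2 CPM and per microglia markers, and each family ratio), a gap test for a single mouse far from the others marked 2, and chance alone marks about 1 set in 20. Mef2a in log2(CPM + 1) was marked with a gap of 0.892 of its range, because mouse 3 (236 CPM) lay below mice 1, 2 and 4 (523 to 575 CPM). Runx1 per 1000 CPM of microglia markers was marked with a gap of 0.854 of its range, because mouse 1 (1.67) lay above mice 2, 3 and 4 (0.971 to 1.07).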

How the results depend on the processing

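The count of 9 factors above 10 CPM was the same under DESeq2 size factors, no count filter, DESeq2 and limma-voom. It was also the same with either count column of each mouse alone and without any single mouse. Without mice 1 and 2 it was 8, since Cebpa was not called (edgeR adjusted p = 0.056, against 2.4e-04 to 0.011 under the other alternatives). The relatives called numbered 9 without mice 1 and 2 and 10 to 12 elsewhere; without mice 1 and 2, Irf3 (edgeR adjusted p = 0.080) and Mef2d (0.058) were not called. With no filter on counts Irf7 was called (0.043). DESeq2 did not call Ikzf5 (0.060) or Smad3 (0.082), nor did limma-voom call Smad3 (0.063). At this depth the single counts of Spib and Runx3 lie below what a count of 0 allows, so their levels were not measured. The mean log2 ratio of Mef2c over Mef2a changed sign, at -0.032 with the longest transcript and between -0.079 and 0.17 without a mouse; no other ratio did, those over Spib and Runx3 being set by the pseudocount. The ratios over relatives near 0 moved with the pseudocount, that of Runx1 over Runx2 from 2.62 (pseudocount 1) to 7.61 (0.01). As the median of the ratios to each of the 16 microglia markers, levels per 1000 came to 7.05 for Spi1, 8.46 for Irf8, 6.82 for Sall1, 11.4 for Mef2a, 12.5 for Mef2c, 1.74 for Runx1, 0.878 for Cebpa, 1.17 for Bhlhe41 and 1.68 for Ikzf1, since the sum weights the few most abundant markers. No paired analysis was possible because the libraries form a single group.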
